A study of Mus musculus with 10 samples.

Results

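The genes described here are the 5 muscarinic acetylcholine receptors (Chrm1 to Chrm5), 4 subunits of neuronal nicotinic acetylcholine receptors (Chrna4, Chrna5, Chrna7 and Chrnb2) and Rapsn, which encodes the receptor-clustering protein rapsyn. They were taken by symbol, 10 genes among the 20483 of the table. Chrna5 was not analysed here, 9 genes had values, and 8 of these reached the level at which a regional difference was tested. The libraries came from wild-type (WT) mice, from the lateral shell (n = 5 libraries) and the medial shell (n = 5 libraries) of the nucleus accumbens, the ventral part of the striatum. The RNA came from Geo-seq, which takes laser-captured tissue and amplifies its RNA, with TruePrep libraries, and the labels name the material only as neural cells. The labels give no age and do not tie the biological replicates to animals or say how the pieces were placed. Every p-value below therefore measures the spread between these libraries, some of which may be technical, and would be too small if libraries shared an animal.

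Acetylcholine in the striatum is released mainly by a sparse class of large cholinergic interneurons and acts on 2 receptor families. Muscarinic receptors are G-protein-coupled: the subtypes encoded by Chrm1, Chrm3 and Chrm5 act through Gq and phospholipase C, and those encoded by Chrm2 and Chrm4 act through Gi and Go and lower cyclic AMP. In the striatum Chrm1 is known from spiny projection neurons of both output pathways, Chrm4 mainly from those that carry the D1 dopamine receptor, and Chrm2 from cholinergic interneurons, where it serves as an autoreceptor. Nicotinic receptors are ion channels of 5 subunits; receptors holding alpha4 and beta2 subunits sit largely on the terminals of incoming dopamine axons, whose RNA is made mostly in the midbrain and not in the striatum. Rapsyn is best known from muscle, where it anchors nicotinic receptors below the motor nerve terminal.

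Values are TPM, a level corrected for gene length and scaled to the same total in every library. TPM keeps no depth, so the depth of each library is unknown and no counting interval is given. The text writes listed at 0 for a TPM of 0, because 20 of 4272 abundant genes, with means of 20 TPM or more, also had a 0 somewhere. Genes of striatal projection neurons were present in every library, with Ppp1r1b at 409 to 1082 TPM, Penk at 1207 to 3219 TPM and Drd1 at 76.0 to 155 TPM. The RNA named AY036118 took 8.25% to 14.4% of the TPM in 8 libraries. It was at only 1.38 TPM in lateral replicate 5 and 1.42 TPM in medial replicate 2. Rapsn and each gene called from a gene or marker list below are therefore also given without lateral replicate 5 and medial replicate 2. Over all 15596 genes tested, 60 were higher in lateral and 171 in medial libraries at a limma adjusted p under 0.05, with a median log2 fold change of -0.21. Scaling by median ratios gave 88 and 82 and moved the median by 0.18, and quantile normalization gave 86 and 100 and moved it by 0.21. Every log2 fold change below subtracts the medial from the lateral mean of log2(TPM + 1), a scale that understates changes of genes at low levels. In such captured tissue, fewer cells of a type and less RNA per cell cannot be told apart.

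Of the 8 tested genes, 1 was called, Rapsn, which was higher in the lateral shell. Among all tested genes limma called 1.48% in either direction and 0.385% in that one. Rapsn reached 1 TPM in all 5 lateral libraries but in only 1 medial library. It thus met the level for testing through the region where it was higher. The genes were also chosen with earlier results of these data known, so this count is no independent support for the difference. In the medial direction limma called 0 of 8 genes, against 1.1% of all genes. At an unadjusted p under 0.05 there were 2 of the 8, Rapsn and Chrnb2, against 15.4% of all genes. The median log2 fold change of the 8 genes was 0.16, with 5 above 0 and 3 below. Of all 15596 tested genes, 4884 were above 0 and 10712 below.

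**Figure D1:**
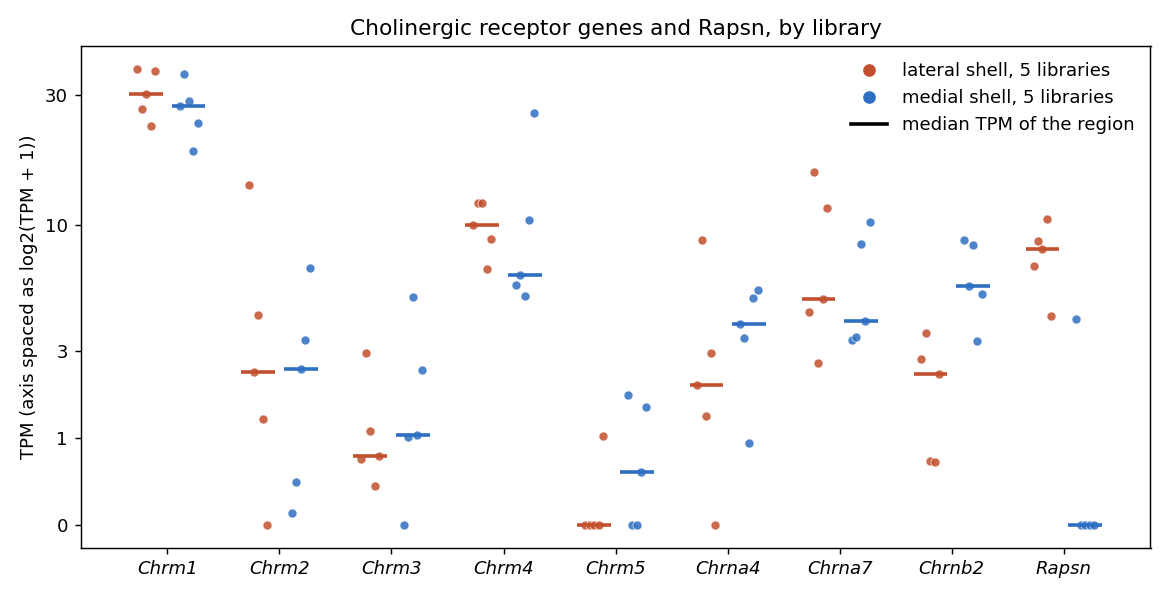
TPM of the 9 genes with values, on an axis spaced as log2(TPM + 1), with 1 point per library (lateral shell in red, medial shell in blue, 5 libraries each) and a bar at the median of each region. Rapsn is the 1 gene whose regions do not overlap, at 4.31 to 10.5 TPM in lateral libraries and 0 to 4.17 TPM in medial ones.

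Rapsn was at 6.90, 8.62, 8.04, 10.5 and 4.31 TPM in lateral replicates 1 to 5. In medial replicate 1 it was at 4.17 TPM, and it was listed at 0 in the other 4 medial libraries. The regions did not overlap, although the lowest lateral and the highest medial library lay close together; among all tested genes the regions did not overlap for 4.25% in either direction and 0.859% in this one. Of the 8 tested genes Rapsn was the only 1 without overlap. The log2 fold change was 2.60 (standard error 0.50, 95% interval 1.52 to 3.68, limma adjusted p = 0.0248). Its size depends on the pseudocount, the constant added before taking logs: it was 5.14 with 0.1 (adjusted p = 0.0482) and 1.15 with 5 (adjusted p = 0.0207). The call was lost without any 1 of lateral replicates 1, 2 or 4 or medial replicates 2, 3, 4 or 5 (adjusted p from 0.051 to 0.0681) and without lateral replicate 5 and medial replicate 2 together (log2 fold change 2.64, adjusted p = 0.101). Without medial replicate 1, the medial library that held Rapsn, the log2 fold change was 3.07 (adjusted p = 0.00262).

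Rapsn lies on chromosome 2 from 91035620 to 91045729 on the plus strand (GRCm38, GENCODE M21), in 8 exon blocks of 1802 bases. The noncoding gene Gm13778 overlaps it on the opposite strand, but the exons share 4 bases (0.222% of the exonic length of Rapsn). Gm13778 was at 3.47 and 2.91 TPM in lateral replicates 1 and 2 and 9.47 TPM in medial replicate 3, and was listed at 0 in the other libraries. Its part in the values of Rapsn was not tested.

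The genes whose pattern over the 10 libraries was most like that of Rapsn were Pcp4, Htr2a and Ctsh. Likeness was the root mean square difference of log2(TPM + 1), each gene centred on its own mean, over 11822 genes. It was 0.54 for Pcp4, a calmodulin regulator, 0.57 for Htr2a, encoding the serotonin 2A receptor, and 0.61 for Ctsh, encoding the protease cathepsin H. Pcp4 and Htr2a were themselves called towards lateral (log2 fold change 2.13 and 2.78, limma adjusted p = 0.00368 and 0.00342). Ctsh did not pass (1.82, limma adjusted p = 0.0525). The likeness thus includes the regional difference. Medial replicate 1 was the highest medial library for all 3, at 1961 TPM of Pcp4, 4.56 TPM of Htr2a and 3.36 TPM of Ctsh. The 3 genes were picked by their likeness to Rapsn over the same libraries, so this follows in part from the choice. The lowest lateral value was 3040 TPM for Pcp4 and 13.3 TPM for Htr2a, both above that library, and 2.98 TPM for Ctsh, below it.

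**Figure D2:**
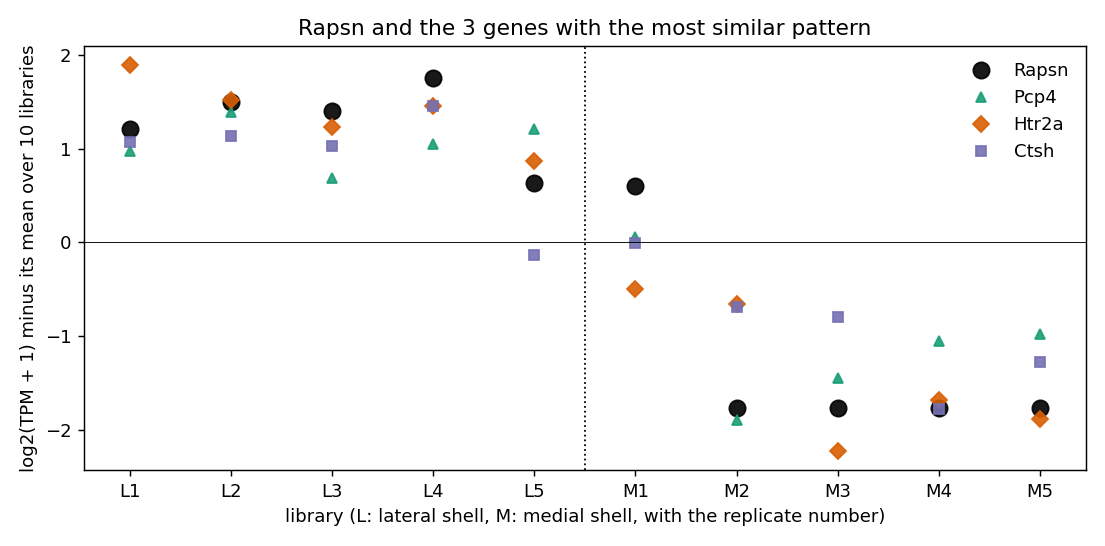
Level of Rapsn and of the 3 genes most like it in each library, as log2(TPM + 1) minus the gene's mean over the 10 libraries; L marks the lateral and M the medial shell, with the replicate number, and the dotted line divides them. Rapsn in M1 (4.17 TPM) sits beside L5 (4.31 TPM), and the other 4 medial libraries are listed at 0.

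Genes that work with rapsyn at the nerve-muscle synapse did not pass the test. Of 11 listed, 10 were tested and limma called 0 in either direction (1 at an unadjusted p under 0.05), with a median log2 fold change of -0.05. Agrn, encoding the nerve-derived organizer agrin, was at 17.5 ± 4.78 TPM in lateral against 17.4 ± 4.18 TPM in medial libraries (SD, n = 5 each). Lrp4, the agrin receptor gene, was at 5.65 ± 2.00 and 5.42 ± 2.37 TPM. Dtna, encoding the dystrophin-associated protein alpha-dystrobrevin, had the smallest p, at 9.99 ± 1.75 TPM in lateral against 16.0 ± 2.29 TPM in medial libraries (limma log2 fold change -0.63, adjusted p = 0.186). Crkl, encoding an adaptor protein, followed at -0.45 (limma adjusted p = 0.458). Of 10 skeletal muscle markers 2 had values, Acta1 at 2.65 to 18.6 TPM and Mylpf at 0 to 2.19 TPM. Acta1, encoding skeletal alpha-actin, was at 14.2 ± 4.45 TPM in lateral against 8.25 ± 3.50 TPM in medial libraries (limma log2 fold change 0.77, adjusted p = 0.332).

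Among markers of other cell types, 3 microglia genes and Nrgn were called in the lateral direction, as Rapsn was. All 10 microglia markers had higher lateral values (median log2 fold change 1.00), with a summed level of 422 to 657 TPM in lateral and 197 to 426 TPM in medial libraries. Those that passed were C1qa, Tmem119 and Ctss (limma adjusted p = 0.035, 0.0381 and 0.0388). An unadjusted limma p under 0.05 was found for all 10 microglia markers. Over all tested genes, 15.4% had such a p in either direction and 0.385% were called towards lateral. Leaving out 1 library ended the call of C1qa and of Tmem119 in 8 of 10 fits and of Ctss in 7 of 10, and without lateral replicate 5 and medial replicate 2 none of them passed (adjusted p = 0.137, 0.137 and 0.165). Of the 10 oligodendrocyte markers 9 had higher lateral values and 0 passed by limma, with 4 at an unadjusted p under 0.05 (median 0.99, summed level 310 to 1037 TPM and 113 to 514 TPM). Of 7 tested GABAergic interneuron markers 6 had higher lateral values and 0 passed, with 5 at an unadjusted p under 0.05 (median 2.03, summed level 491 to 5627 TPM and 40.6 to 1707 TPM). Of 12 tested spiny projection neuron markers 7 had higher and 5 had lower lateral values. By limma 0 passed and 4 had an unadjusted p under 0.05 (median 0.08, summed level 3685 to 6248 TPM and 3530 to 5741 TPM). Among glutamatergic neuron markers 3 had values: Nrgn passed in the lateral direction (limma adjusted p = 0.00112, and 0.0119 without those 2 libraries), while Slc17a6 and Neurod6, encoding a vesicular glutamate transporter and a cortical transcription factor, reached at most 1.3 and 3.31 TPM. Their part in the result for Rapsn was not tested.

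Among the receptors, Chrm1 (chromosome 19, 8663789 to 8683587, GRCm38 with GENCODE M21 as for all positions here) had the highest level and differed little between libraries. It was at 37.2, 26.8, 30.3, 23.3 and 36.5 TPM in lateral replicates 1 to 5 and at 27.4, 35.6, 28.4, 18.8 and 23.8 TPM in medial replicates 1 to 5. The regions overlapped over most of their range, and its mean was above that of 85.2% of all genes listed. The log2 fold change was 0.20 (95% interval -0.26 to 0.66, limma adjusted p = 0.693).

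Chrm4 was the next receptor in order, at 10.01, 12.03, 12.04, 6.73 and 8.84 TPM in lateral replicates 1 to 5. The medial values were 5.81, 6.35, 5.24, 10.5 and 25.7 TPM. Medial replicate 5 stood above all other libraries, and the medial mean of 10.7 TPM was higher than the lateral mean of 9.93 TPM while the medial median of 6.35 TPM was lower than the lateral one of 10.01 TPM. The log2 fold change was 0.11 (95% interval -0.71 to 0.94, limma adjusted p = 0.916), and its sign turned without medial replicate 1 (-0.020) or medial replicate 3 (-0.052). GENCODE M21 models Chrm4 (chromosome 2, 91927249 to 91928688) as 1 exon block of 1440 bases, nearly all of them coding, where the RefSeq gene spans 7647 bases. Chrm5 likewise has a single block of 1599 bases against a RefSeq span of 57629. Which model the authors used is unknown, and a length without noncoding exons can shift the TPM of both genes against that of others.

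The remaining muscarinic genes were low. Chrm3 (chromosome 13, 9875486 to 10360847), a Gq-coupled subtype, was at 0.688, 2.96, 1.11, 0.363 and 0.728 TPM in lateral replicates 1 to 5. It was listed at 0 in medial replicate 1 and was at 1.01, 5.16, 1.06 and 2.45 TPM in medial replicates 2 to 5. The regions overlapped, with a log2 fold change of -0.28 (95% interval -1.43 to 0.87, limma adjusted p = 0.844) that became 0.040 under quantile normalization and 0.051 without medial replicate 3. Chrm5, the subtype best known from midbrain dopamine neurons, fell below the level for testing. It was at 1.03 TPM in lateral replicate 5 and at 1.82, 0.531 and 1.55 TPM in medial replicates 1, 4 and 5, and was listed at 0 in the other libraries.

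Chrm2 (chromosome 6, 36388084 to 36528414) varied more between libraries than any other tested receptor gene here, with a standard deviation of log2(TPM + 1) of 1.26, and its regions overlapped. It was at 14.1, 2.40, 4.36 and 1.34 TPM in lateral replicates 1 to 4 and listed at 0 in lateral replicate 5. The medial values were 0.10, 0.407, 2.47, 3.39 and 6.81 TPM. The log2 fold change was 0.36 (95% interval -1.19 to 1.91, limma adjusted p = 0.852) and turned to -0.15 without lateral replicate 1.

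The libraries with more Chrm2 also had more of several genes of cholinergic neurons, among them Ache, Chat, Slc18a3 and Slc5a7, but not of all. By the same measure of likeness over 11822 genes, the gene most like Chrm2 was Ache, encoding acetylcholinesterase, at 0.31, followed by Grin3a, an NMDA receptor subunit gene, at 0.54 and Parm1 at 0.55. Ache was at 8.09 TPM in the library where Chrm2 was listed at 0 and at 127 TPM in lateral replicate 1, the library with the most Chrm2. Because Ache was picked by its likeness to Chrm2 over the same libraries, this follows in part from the choice. Chat, encoding the acetylcholine-synthesizing enzyme, was at 39.3, 8.48, 21.8, 0.399 and 0.546 TPM in lateral replicates 1 to 5. In medial replicate 1 Chat was listed at 0, and in medial replicates 2 to 5 it was at 0.418, 5.45, 33.7 and 49.1 TPM. The 4 libraries with under 1 TPM of Chat held 0 to 1.34 TPM of Chrm2, and the other 6 held 2.40 to 14.1 TPM. Slc18a3, the vesicular acetylcholine transporter gene, ran from 0 to 44.7 TPM, and Slc5a7, the high-affinity choline transporter gene, from 0.619 to 64.6 TPM. Isl1, a transcription factor gene on the same marker list, went otherwise: it was at 31.2 TPM in medial replicate 2, with 0.407 TPM of Chrm2, and at 1.24 TPM in lateral replicate 3, with 4.36 TPM of Chrm2. All 10 listed cholinergic interneuron markers had values, with a summed level of 8.59 to 342 TPM in lateral and 9.75 to 280 TPM in medial libraries, and the part of these cells in the level of Chrm2 was not tested.

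**Figure D3:**
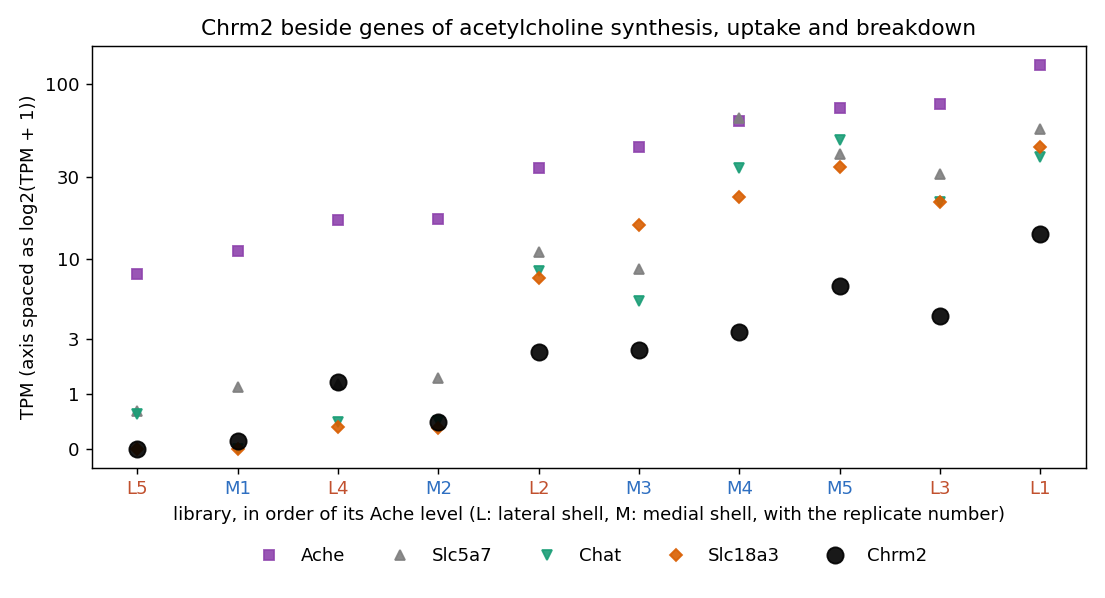
TPM of Chrm2 (black circles) and of Ache, Slc5a7, Chat and Slc18a3 in each library, on an axis spaced as log2(TPM + 1); libraries are in order of their Ache level, with L for the lateral and M for the medial shell. Chrm2 runs from 0 in L5 to 14.1 TPM in L1, and libraries of both regions lie at both ends.

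Genes of acetylcholine synthesis, storage, uptake and breakdown were not called. Of 8 listed genes 6 were tested, 0 passed by limma in either direction and 0 had an unadjusted p under 0.05, with a median log2 fold change of 0.05. The smallest p belonged to Slc44a1, a choline transporter gene, at 8.14 ± 4.42 TPM in lateral against 5.88 ± 2.64 TPM in medial libraries (SD, n = 5 each, limma adjusted p = 0.724). For Slc5a7 the log2 fold change was -0.16, with a 95% interval of -2.59 to 2.27 (limma adjusted p = 0.963), so a difference of several fold in either direction was not detectable.

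By subtype, Chrm1 took 39.4% to 82.1% of the summed muscarinic TPM of a library. Chrm4 took 12.7% to 42.7%, Chrm2 0% to 22.7%, Chrm3 0% to 12.5% and Chrm5 0% to 5.18%. The Gi-coupled genes Chrm2 and Chrm4 together took 30.01% ± 7.91 in lateral against 29.1% ± 17.2 in medial libraries (SD, n = 5 each). The medial libraries were more spread, from 15.6% in replicate 2 to 54.0% in replicate 5, against 18.8% to 38.9% in the lateral ones. The summed level was 31.7 to 62.0 TPM in lateral and 34.3 to 60.3 TPM in medial libraries.

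**Figure D4:**
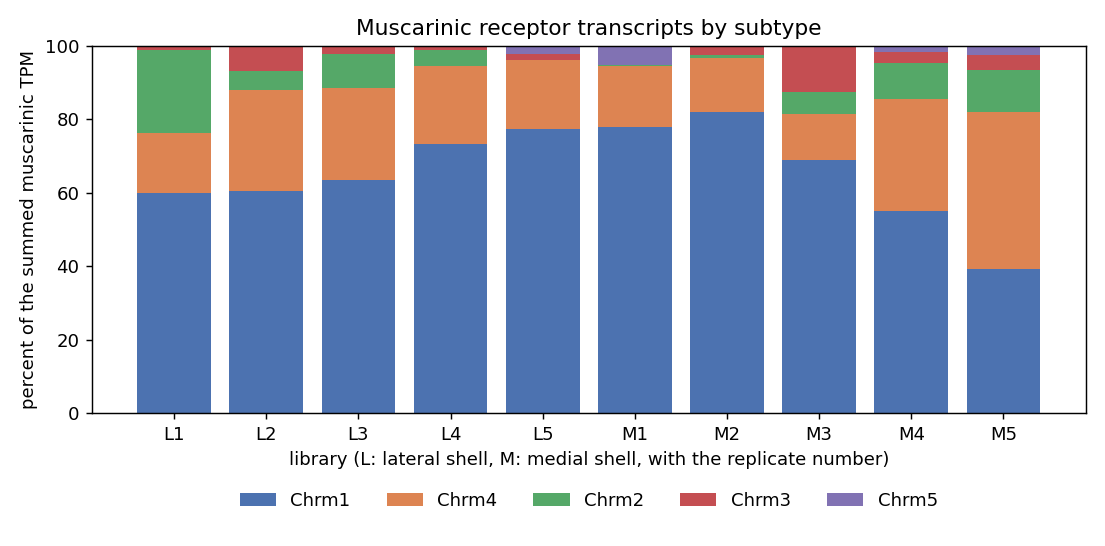
Share of each muscarinic subtype in the summed muscarinic TPM of a library, as stacked bars that add to 100%; L marks the lateral and M the medial shell, with the replicate number. Chrm1 is the largest part in every library except M5, where Chrm4 takes 42.7% and Chrm1 39.4%.

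Ratios between genes of the same library, taken as differences of log2(TPM + 1), were compared for 4 pairs. The log2 ratio of Chrm1 to Chrm4 was 1.55 ± 0.35 in lateral against 1.46 ± 1.07 in medial libraries (SD, n = 5 each; two-sided exact permutation test, p = 0.889, adjusted over the 4 ratios 0.921). Chrm4 to Drd1, the receptor gene of the neurons that Chrm4 is known to mark, stood at -3.43 ± 0.50 and -3.48 ± 0.67 (exact permutation p = 0.921, adjusted 0.921). Chrm1 to Ppp1r1b, a gene of all spiny projection neurons, stood at -4.69 ± 0.43 and -4.44 ± 0.53 (exact permutation p = 0.437, adjusted 0.873). Ppp1r1b itself had a log2 fold change of 0.45 without passing (limma unadjusted p = 0.0364, adjusted p = 0.288). Chrna4 to Chrnb2 stood at 0.16 ± 1.22 and -0.66 ± 1.07 (exact permutation p = 0.286, adjusted 0.873). The smallest p that this design can give is 0.00794, and none of the 4 differences exceeded the spread between libraries. Chrm4 to Drd1 turned sign under 5 of the 15 alternatives run.

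Of the nicotinic subunits, Chrnb2 had the widest regional difference, without passing the test. It encodes the beta2 subunit and was at 2.77, 3.64, 0.669, 0.649 and 2.32 TPM in lateral replicates 1 to 5. The medial values were 8.70, 5.75, 8.37, 3.34 and 5.32 TPM. Only lateral replicate 2 lay above the lowest medial library, so the regions overlapped by a single pair. The log2 fold change was -1.34 (standard error 0.41, 95% interval -2.22 to -0.47, unadjusted p = 0.0055, limma adjusted p = 0.14), and the adjusted p stayed between 0.112 and 0.295 over all 23 alternatives that tested it.

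The gene model of Chrnb2 shares exons with a neighbour. GENCODE M21 places Chrnb2 on chromosome 3 from 89746195 to 89764632 on the minus strand, and 1365 of its 8380 exonic bases (16.3%) overlap exons of Adar, an RNA-editing enzyme gene on the other strand. The overlap lies between 89746565 and 89753446, outside the RefSeq span of Chrnb2, which starts at 89753448. Adar was more abundant, at 17.8 ± 2.72 TPM in lateral against 23.3 ± 5.30 TPM in medial libraries (SD, n = 5 each, limma log2 fold change -0.35, adjusted p = 0.475). Reads of the 2 genes there cannot be told apart unless strand was used in counting, and the part of Adar in the values of Chrnb2 was not tested.

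Chrna4 (chromosome 2, 181018380 to 181043546) encodes the alpha4 subunit, which pairs with beta2. It was at 2.05, 8.76, 1.40 and 2.96 TPM in lateral replicates 1 to 4 and listed at 0 in lateral replicate 5. The medial values were 3.99, 3.45, 0.919, 5.12 and 5.52 TPM. The regions overlapped, since lateral replicate 2 was the highest library of all, and the log2 fold change was -0.52 (95% interval -1.74 to 0.70, limma adjusted p = 0.707). The genes with the pattern most like that of Chrna4 were Rps6kb2 (root mean square difference 0.40), Hk1 (0.41) and Wdyhv1 (0.45).

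Chrna7 (chromosome 7, 63098692 to 63212569) encodes the alpha7 subunit, which forms receptors by itself. It was at 4.46, 15.7, 2.65, 5.05 and 11.6 TPM in lateral replicates 1 to 5 and at 3.36, 3.49, 8.44, 4.10 and 10.3 TPM in medial replicates 1 to 5. Each region held low and high libraries, and the log2 fold change was 0.25 (95% interval -0.73 to 1.23, limma adjusted p = 0.837). It turned to -0.034 without lateral replicate 2 and to -0.058 without lateral replicate 5 and medial replicate 2. Of 12 other nicotinic subunits, 3 had values and 0 reached the level for testing: Chrna3 at up to 2.70 TPM, Chrna10 at up to 1.84 TPM, and Chrne listed at 0 in all libraries.

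In order of the median over the 10 libraries, the levels ran from Chrm1 (27.9 TPM) through Chrm4 (9.43), Chrna7 (4.75), Rapsn (4.24), Chrnb2 (3.49), Chrna4 (3.21), Chrm2 (2.44) and Chrm3 (1.03 TPM) to Chrm5, with a median of 0. Within regions the order differed: Rapsn, with a median of 8.04 TPM, came next after Chrm1 and Chrm4 in lateral libraries and last, with a median of 0, in medial ones, and Chrnb2 had medians of 2.32 and 5.75 TPM. Chrm1 was above Chrm4 in 9 of 10 libraries, with a median difference within a library of 19.9 TPM against a standard deviation of 9.70 TPM. For every other pair of neighbours in this order the median difference was smaller than its standard deviation. Chrm4 was above Chrna7 in 7 of 10 libraries and Chrm3 above Chrm5 in 8 of 10, and the pairs between them were in that order in 5 or 6 of 10.

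Proteins that assemble or modulate nicotinic receptors included genes called in each direction. Of 9 listed genes, all tested, 1 passed towards lateral and 1 towards medial, with a median log2 fold change of -0.28. At an unadjusted p under 0.05 there were 3. Over all tested genes limma called 1.48% in either direction, and 15.4% had an unadjusted p under 0.05. Lynx1, whose product binds nicotinic receptors at the membrane and dampens them, was at 60.3 ± 17.7 TPM in lateral against 20.1 ± 12.1 TPM in medial libraries (SD, n = 5 each). All lateral libraries (44.8 to 89.5 TPM) lay above all medial ones (9.43 to 40.3 TPM), with a log2 fold change of 1.66 (limma adjusted p = 0.0266). Leaving out 1 library ended that call for lateral replicates 2 and 4 and for medial replicates 2, 3, 4 and 5 (highest adjusted p 0.0681). It also ended without lateral replicate 5 and medial replicate 2 together (0.101) and without a mean-variance trend (0.0601). Lypd1, another membrane-anchored protein of the same Ly6 family, had the opposite direction. It was at 28.8 ± 11.7 TPM in lateral against 74.5 ± 4.52 TPM in medial libraries, with no overlap (limma log2 fold change -1.43, adjusted p = 0.013). Among all tested genes, all lateral libraries lay above all medial ones for 0.859%, and all medial above all lateral for 3.39%. The call of Lypd1 was lost without lateral replicate 5 and medial replicate 2 together (adjusted p = 0.0903). Lypd6b had an unadjusted p under 0.05 without being called. It was at 1.42 ± 1.25 TPM in lateral against 6.24 ± 3.79 TPM in medial libraries (limma log2 fold change -1.59, adjusted p = 0.14).

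Lypd1 shares 1202 of its exonic bases (17.1%) with Gpr39 on the other strand. Gpr39, a zinc-sensing receptor gene, was listed at 0 in lateral replicates 1 to 4 and was at 1.58 TPM in lateral replicate 5. It ranged from 0.941 to 10.98 TPM in medial libraries, where Lypd1 was at 67.3 to 77.8 TPM. The log2 fold change of Gpr39 was -1.91 (limma adjusted p = 0.14), in the direction of Lypd1. Its part in the values of Lypd1 was not tested. The assembly factors Ric3 and Tmem35a, which help nicotinic receptors reach the membrane, were at 10.9 ± 3.24 against 14.3 ± 3.51 TPM and 61.5 ± 6.94 against 69.8 ± 24.7 TPM, and neither passed (limma adjusted p = 0.549 and 0.871).

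Downstream of the Gq-coupled subtypes, 10 listed genes were tested and 1 passed, in the lateral direction, with a median log2 fold change of 0.33. At an unadjusted p under 0.05 there were 4. Of all tested genes, 0.385% were called towards lateral and 15.4% had an unadjusted p under 0.05. Itpr1, the receptor through which inositol trisphosphate releases calcium, was at 75.8 ± 14.95 TPM in lateral against 39.8 ± 9.03 TPM in medial libraries (SD, n = 5 each). The log2 fold change was 0.92 (limma adjusted p = 0.0425), and the lowest lateral value, 51.9 TPM in replicate 3, was beside the highest medial one, 51.8 TPM in replicate 1. The call of Itpr1 held in 10 of 24 alternatives, and among fits that left out 1 library it held only without lateral replicate 3 or medial replicate 1 (adjusted p up to 0.103 in the others). Without lateral replicate 5 and medial replicate 2 its adjusted p was 0.18. Prkcb, a protein kinase C gene, was at 127 ± 24.1 against 77.6 ± 13.0 TPM (limma adjusted p = 0.0734). Kcnq3, a subunit of the potassium channel that muscarinic receptors close, was at 36.8 ± 11.6 against 19.4 ± 5.13 TPM (limma adjusted p = 0.112). Plcb4, a phospholipase C gene, was at 8.06 ± 2.86 against 2.80 ± 1.32 TPM (limma adjusted p = 0.115). The G-protein genes themselves did not pass: Gnaq was at 52.5 ± 5.64 against 65.1 ± 14.9 TPM and Gna11 at 60.8 ± 5.86 against 70.1 ± 17.2 TPM.

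Downstream of the Gi-coupled subtypes, 9 of 10 listed genes were tested and 1 passed, Rgs4, with a median log2 fold change of -0.10. Rgs4 encodes a protein that shortens Gi and Gq signals and is known to limit the muscarinic autoreceptor response of cholinergic interneurons. It ran from 291 to 754 TPM in lateral and from 84.1 to 178 TPM in medial libraries, with no overlap (log2 fold change 2.07, limma adjusted p = 0.00244). Rgs4 kept its call in all 24 alternatives, with an adjusted p of at most 0.0253, and 0.0175 without lateral replicate 5 and medial replicate 2. Of the tested genes on this list 3 had an unadjusted p under 0.05, Rgs4, Adcy5 and Gnai1. The shares over all tested genes were 0.385% called towards lateral and 15.4% at an unadjusted p under 0.05. Adcy5 was at 184 ± 35.6 TPM in lateral against 131 ± 25.2 TPM in medial libraries (limma adjusted p = 0.203). Gnai1 was at 50.5 ± 13.5 against 84.4 ± 30.8 TPM (limma adjusted p = 0.304). Kcnj3, a subunit of the potassium channel that Gi-coupled receptors open, was at 4.09 ± 2.89 against 7.73 ± 4.02 TPM (limma adjusted p = 0.42).

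**Figure D5:**
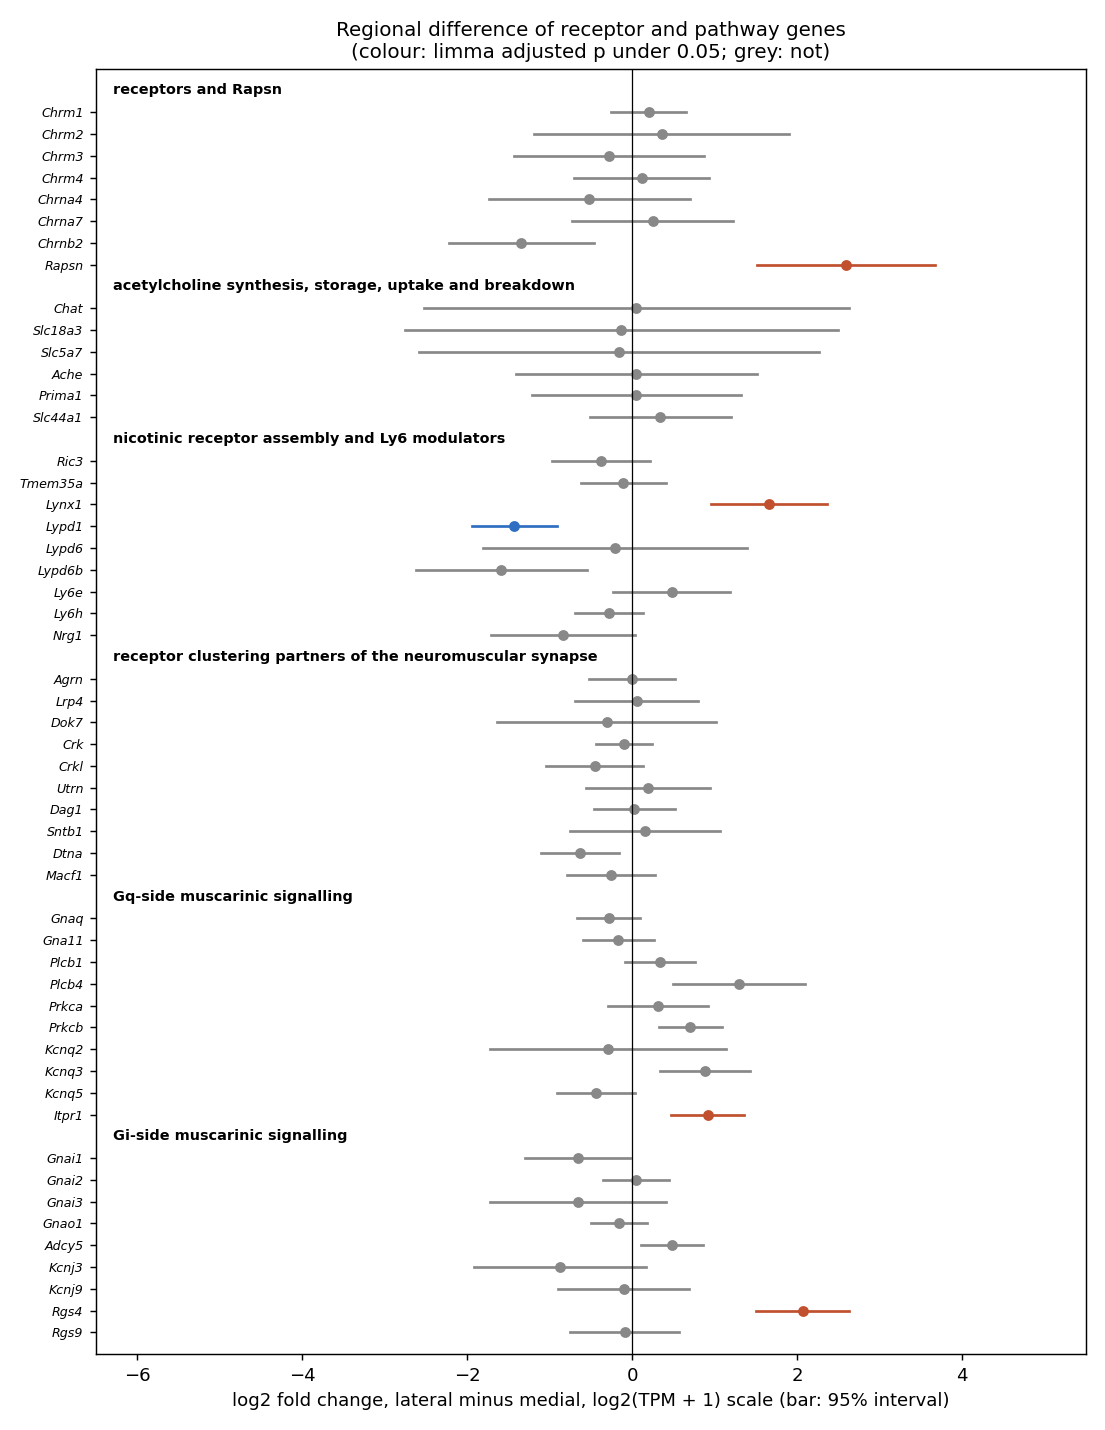
Difference of lateral and medial mean log2(TPM + 1) for the tested receptor genes, Rapsn and the tested genes of 5 lists around them, with 95% intervals; colour marks a limma adjusted p under 0.05 (red higher in lateral, blue higher in medial) and grey the rest. Rapsn, Lynx1, Itpr1 and Rgs4 are red and Lypd1 is blue.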

How the data were processed

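The deposited table gives TPM, scaled by the authors to 1000000 per library, with 1 column per library. Per the submitters' processing notes, the build was GRCm38 (mm10) and the tools, with no roles given, were featureCounts 1.6.3, StringTie 1.3.4, HISAT2 2.1.0 and fastp 0.20.0. Annotation, strand use and filters were not given in the sources used here.

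Regional differences were fitted with limma 3.58.1 in R 4.3.3 (with a mean-variance trend). The fit used log2(TPM + 1) of 15596 genes that reached 1 TPM in at least 5 libraries, with Benjamini-Hochberg adjustment over all of them and a threshold of 0.05. The scripts were tested on simulated data. Gene positions and overlaps came from GENCODE M21 and RefSeq spans from the GRCm38.p6 table. Alternatives changed the pseudocount, filter, scaling, variance model, sample weights, replicate block and libraries used.

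The members, lists and tests were chosen with earlier results of these data known. The text names all members, list genes that passed or otherwise had the smallest p, and the 3 genes most like each of the 3 most variable members. Other list genes, among them Chat, Slc18a3, Ache, Agrn, Lrp4, Ric3, Tmem35a, Prkcb, Plcb4, Kcnq3, Kcnj3, Gnaq, Gna11 and Isl1, were chosen after their values were seen. Markers of astrocytes, endothelial and mural cells, ependyma and choroid plexus, and blood are in the closing section.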

Additional observations from a re-analysis of the deposited data

Results flagged for a closer look

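Among 17 genes checked in each region, 4 had a library whose distance to the nearest other, divided by the range of its 5 libraries, exceeded 0.71. For normally distributed values about 1 in 20 groups would exceed it, but TPM need not be so distributed. Where all other libraries of the region are listed at 0, as for Rapsn and Chrm5 below, the value is 1 whatever the level. Rapsn in medial replicate 1 (4.17 TPM) stood apart from the other medial libraries, all listed at 0. Chrm4 in medial replicate 5 (25.7 TPM) stood apart from the next medial library at 10.5 TPM. Chrm3 in lateral replicate 2 (2.96 TPM) stood apart from the next at 1.11 TPM. Chrm5 in lateral replicate 5 (1.03 TPM) was the only lateral library in which that gene was not listed at 0.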

How the results depend on the processing

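The count of the 8 tested genes called towards lateral, 1 (Rapsn), became 0 under a filter of 5 TPM in at least 5 libraries, which left Rapsn untested, with the replicate block (adjusted p = 0.0698) and without lateral replicate 5 and medial replicate 2, and it ran from 0 to 1 over the 10 fits without 1 library. The count towards medial was 0 in all 24 alternatives. No pairing by replicate number was detected: correlations of same-numbered deviations ran from -0.0534 to 0.0417, and none of the 5 lateral libraries correlated best with its own number. Such correlations cannot show whether same-numbered libraries came from the same animal.

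Over all genes, the counts of 60 and 171 became 19 and 45 with the replicate block, 12 and 31 without lateral replicate 5 and medial replicate 2, and 34 and 111 without the mean-variance trend. The medial count was 107 with a pseudocount of 0.1, 82 under median-ratio scaling and 100 under quantile normalization. Without 1 library the counts ran from 23 to 69 and from 56 to 188. An alternative added after seeing the data, rescaling without AY036118, gave 48 and 174, and Itpr1, C1qa, Tmem119 and Ctss then lost their calls (adjusted p = 0.0577, 0.0541, 0.0508 and 0.0508).

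Directions turned for values that had not passed. Chrm3 was 0.040 under quantile normalization and ran from -0.60 to 0.051 over fits without 1 library. Chrna7 was -0.058 without lateral replicate 5 and medial replicate 2 and ran from -0.034 to 0.51 without 1 library, Chrm2 from -0.15 to 0.83 and Chrm4 from -0.052 to 0.47. The log2 ratio difference of Chrm4 to Drd1, 0.05, was -0.013 with a pseudocount of 5 and ran from -0.17 to 0.28 without 1 library. That of Chrm1 to Chrm4, 0.09, ran from -0.30 to 0.30. Those of Chrna4 to Chrnb2 and Chrm1 to Ppp1r1b kept their sign in all 15 alternatives. With the replicate block Lynx1 (adjusted p = 0.0866), Itpr1 (0.0698), C1qa (0.0598), Tmem119 (0.0977) and Ctss (0.104) also lost their calls. The causes were not tested. TPM keeps no depth, so what depth limits at these levels is unknown.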

Other observations

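Marker lists that the text above does not use gave the following values. Of 10 astrocyte markers 8 had lower lateral values, as had 10712 of all 15596 tested genes. Of these markers 0 passed by limma (4 at an unadjusted p under 0.05, against 15.4% of all tested genes). Their summed level was 833 to 1152 TPM in lateral and 968 to 1331 TPM in medial libraries. Of 9 tested endothelial and mural markers 0 passed and 0 had an unadjusted p under 0.05 (135 to 393 TPM and 156 to 284 TPM). Haemoglobin and other blood markers ranged widely within both regions, from 139 to 4114 TPM and from 80.7 to 2563 TPM, and 0 of 5 passed or had an unadjusted p under 0.05. Of 8 ependymal and choroid plexus markers 4 had values, with a summed level of 2.44 to 13.8 TPM in lateral and 2.52 to 11.8 TPM in medial libraries.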
